A study of Mus musculus with 6 samples.

Results

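The receptor for interferon gamma and a set of GTPases that interferon gamma induces were followed at the RNA level in mouse CD8+ T cells treated with an inhibitor of the histone demethylase LSD1. The set held 10 of the 16281 genes in the table of read counts, taken by gene symbol alone. They were both receptor chains (Ifngr1 and Ifngr2), 5 guanylate-binding proteins (Gbp2, Gbp3, Gbp5, Gbp7 and Gbp9) and 3 immunity-related GTPases (Irgm1, Igtp and Iigp1). All 10 passed the filter on low counts that left 11698 genes for testing.

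The cells came from the spleens of C57BL/6 mice carrying the OT1 transgene, Tg(TcraTcrb)1100Mjb, which gives their CD8+ T cells 1 rearranged receptor for an ovalbumin peptide. All 6 cultures were activated for 48 h with antibodies to CD3 and CD28 (each at 2 µg/ml) plus 20 ng/ml IL-2, and were then kept in IL-2 for 3 days. Of these, 3 cultures (GSK) received 0.5 µM GSK2879552, an irreversible LSD1 inhibitor, through activation and expansion, and 3 (Veh) received the vehicle alone. The cells are described as coming from 3 separate OT1 mice, and each group as holding cells of 3 mice. The ages of the mice, and which Veh and GSK cultures came from 1 mouse, were not given in the sources used here.

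Interferon gamma is secreted by activated CD8+ T cells and also acts on them. Its receptor pairs IFNGR1, which binds the ligand and carries the kinase JAK1, with IFNGR2, which carries JAK2 and is needed for the signal. The signal from the kinases reaches promoters at gamma-activated sites (GAS). IRF1, itself induced by interferon gamma, and the IRF9-containing complex of type I interferon bind interferon-stimulated response elements (ISRE). Guanylate-binding proteins and immunity-related GTPases are large GTPases that assemble on the vacuoles of intracellular parasites and bacteria and help to break them open.

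Total counts ranged from 18288447 to 19846720 per library, and within a group the libraries differed by more than sampling noise (chi-square per degree of freedom of 3.95 to 9.02). Levels are given as counts-per-million values (CPM), taken over TMM-scaled library totals that put the libraries on 1 footing. The 6 measured T cell markers (Cd3d, Cd3e, Cd3g, Cd8a, Cd8b1 and Cd2) summed to 2260 to 2370 CPM in Veh and 2100 to 2250 CPM in GSK. Markers of B cells summed to 5.78 to 8 CPM in Veh and 5.72 to 6.63 CPM in GSK, those of myeloid cells to 10.2 to 15.7 and 9.96 to 13.2, and those of dendritic cells to 0.435 to 0.805 and 0.557 to 1.21. The markers of NK cells summed to 1.58 to 2.36 CPM in Veh and 2.38 to 3.78 CPM in GSK, nearly all of it Klrb1c, with at most 1 count of Ncr1 or Klra8 in any library. Markers of CD4 T cells (43.1 to 52.9 in Veh and 39.2 to 44.8 in GSK) and of erythroid cells (0.105 to 0.268 and 0.101 to 0.313) overlapped between the groups. The filter on low counts left 1 B cell, 3 myeloid, 1 dendritic, 1 NK and 3 CD4 T cell markers for testing. It left 0 erythroid markers. None of the markers so left passed the test described next, and the others were not tested. The T cell markers did not move as a class. Cd3d (log2 fold change -0.16), Cd3e (-0.23) and Cd3g (-0.38) were lower by the adjusted p, Cd2 was higher (0.15), and Cd8a (0.069) and Cd8b1 (-0.11) did not pass. The part of these differences, and of the higher NK cell sum in GSK, in the results was not tested.

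Each gene's GSK and Veh counts entered edgeR's quasi-likelihood test, and p-values were adjusted over the 11698 genes. A gene was called when its adjusted p was under 0.05 and its fold change over 1.5. Both receptor chains fell with GSK, and Ifngr2 was the 1 member of 10 called lower, beside 4.09% of all genes tested. None of the 10 was called higher, beside 2.22% of all genes, by edgeR or by DESeq2. By the adjusted p alone, 2 members were lower (15.5% of all genes) and 3 were higher (16.6% of all genes), the latter being Gbp3, Gbp5 and Gbp7. At an unadjusted p under 0.05, 4 were higher (21.8% of all genes), with Irgm1 as the fourth. In 2 members every GSK library lay below every Veh library (23% of all genes), and in 3 every GSK library lay above (23.7% of all genes). Against these shares of all genes, the counts of members are not by themselves particular to them.

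**Figure D1:**
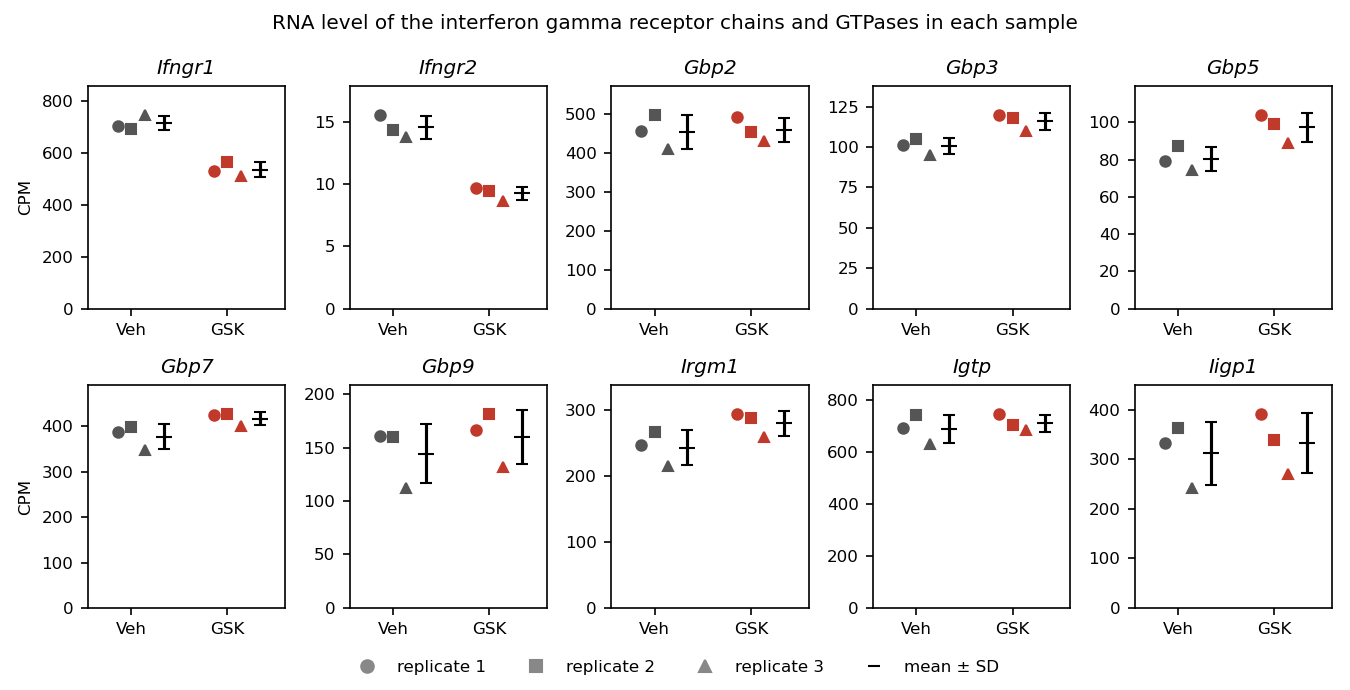
RNA level of each member in CPM (vertical axes from 0, each panel on its own scale) for the 3 Veh (grey) and 3 GSK (red) cultures, with symbols for the replicate number and bars for the mean ± SD (n = 3). The groups separate for Ifngr1, Ifngr2, Gbp3, Gbp5 and Gbp7 and overlap for the other members, and the triangle, replicate 3, is the lowest point of both groups for all 8 GTPases.

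Ifngr1 (chr10:19591949-19610229 on the plus strand, GRCm38) encodes the ligand-binding chain. Its level was 706, 693 and 747 CPM in Veh replicates 1 to 3 and 532, 566 and 509.7 CPM in GSK replicates 1 to 3. The highest GSK culture lay well below the lowest Veh culture. The level fell by 25.1% from Veh to GSK (log2 fold change -0.42, SE 0.044, 95% interval -0.51 to -0.32, edgeR adjusted p = 3.261e-05), short of the 1.5-fold threshold. In RNA from whole cultures, less transcript per cell and fewer cells with the transcript cannot be told apart.

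Ifngr2 (chr16:91547059-91564007, plus strand) encodes the signalling chain that JAK2 sits on. Veh replicates 1 to 3 had 15.6, 14.4 and 13.8 CPM, and GSK replicates 1 to 3 had 9.66, 9.46 and 8.66 CPM. The groups again did not overlap. The level fell by 36.4%, a 1.57-fold decrease (log2 fold change -0.65, SE 0.11, edgeR adjusted p = 0.0006047), and the 95% interval of -0.88 to -0.43 spans the 1.5-fold threshold. Per kilobase of exon, the scale on which genes can be compared, Ifngr1 stood at 251 ± 9.79 CPM in Veh and 188 ± 9.97 in GSK (SD, n = 3 each), and Ifngr2 at 3.87 ± 0.241 and 2.46 ± 0.141. The signalling chain was thus the scarcer transcript in both groups. Of the other interferon receptor chains, Ifnar1, a chain of the type I receptor, also fell, from 211 ± 7.44 to 180.2 ± 15.7 CPM (log2 fold change -0.23, adjusted p = 0.01119, or 0.06318 without GSK replicate 1), while the other 2 chains that could be tested did not pass.

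The promoters were read beside these values because GAS and ISRE motifs are where interferon signals reach the DNA. RefSeq windows on GRCm38.p6, from 250 bases before the start site to 50 after it, were found for 8 of the 10 members, all but Gbp9 and Iigp1. The motifs searched were GAS, TTCNNNGAA, which reads the same on both strands, and the ISRE core, GAAA followed by any 2 bases and GAAA again, on either strand. The 170 bases before the start are given here for the 5 members whose RNA passed the adjusted p and for Igtp, whose RNA did not, with each motif in capitals. An ISRE core on the opposite strand reads TTTC, any 2 bases and TTTC, and cores that overlap make 1 longer run of capitals. The windows are Ifngr1 chr10:19591779-19591948, Ifngr2 chr16:91546889-91547058, Gbp3 chr3:142559874-142560043, Gbp5 chr3:142496764-142496933, Gbp7 chr3:142530166-142530335 and Igtp chr11:58199386-58199555, all on the plus strand. The Gbp3 window ends at a RefSeq start site inside the gene span given below (chr3:142560016-142573213). Its last bases thus lie within that span.
Ifngr1: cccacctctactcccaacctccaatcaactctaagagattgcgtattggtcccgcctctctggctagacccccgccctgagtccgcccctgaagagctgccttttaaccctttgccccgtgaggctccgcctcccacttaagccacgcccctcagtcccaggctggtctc
Ifngr2: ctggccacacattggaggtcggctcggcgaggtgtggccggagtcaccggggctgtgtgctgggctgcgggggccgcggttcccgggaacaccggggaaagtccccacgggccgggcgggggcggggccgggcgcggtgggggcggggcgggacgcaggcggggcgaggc
Gbp3: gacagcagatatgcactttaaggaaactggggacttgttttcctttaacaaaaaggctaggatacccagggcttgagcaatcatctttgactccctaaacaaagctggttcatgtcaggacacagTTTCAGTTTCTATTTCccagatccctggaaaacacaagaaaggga
Gbp5: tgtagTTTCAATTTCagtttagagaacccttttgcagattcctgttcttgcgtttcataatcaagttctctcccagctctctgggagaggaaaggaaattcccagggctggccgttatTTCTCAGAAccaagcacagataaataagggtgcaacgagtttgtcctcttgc
Gbp7: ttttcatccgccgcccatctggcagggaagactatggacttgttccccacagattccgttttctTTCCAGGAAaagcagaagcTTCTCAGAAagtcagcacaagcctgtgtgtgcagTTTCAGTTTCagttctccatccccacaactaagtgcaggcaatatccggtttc
Igtp: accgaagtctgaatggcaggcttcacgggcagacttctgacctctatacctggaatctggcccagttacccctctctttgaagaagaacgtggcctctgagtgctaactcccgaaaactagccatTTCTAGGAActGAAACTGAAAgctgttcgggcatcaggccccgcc

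Neither receptor promoter held either motif, as in 88.7% of the 32851 promoter windows of the RefSeq table, and both were rich in G and C (61.2% of the bases shown for Ifngr1 and 80% for Ifngr2). An ISRE core was present in at least 1 window of each of the 6 GTPases that had a window, against 3.44% of all windows. Gbp3 had 2 windows, and its cores lay only in the 1 shown. In Gbp3 and Irgm1 the core occurred as an overlapping pair. These pairs began 45 and 39 bases before the start site of that Gbp3 window, and 30 and 24 bases before the start of Irgm1. Gbp2 held 1 copy, 59 bases before its start. A GAS motif was present in 3 of the 6, Gbp5, Gbp7 and Igtp, against 8.3% of all windows, and the same 3 held both motifs, against 0.454%. Gbp7 held GAS at 106 and 87 bases before the start and ISRE at 53, Gbp5 held GAS at 245 and 52 and ISRE at 165, and Igtp held GAS at 45 and ISRE at 34. The motifs did not sort the GTPases by their difference between GSK and Veh, since Gbp3 passed the adjusted p with ISRE alone and Igtp, with both, did not. A match is a stretch of letters, and binding was not measured in these data.

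**Figure D2:**
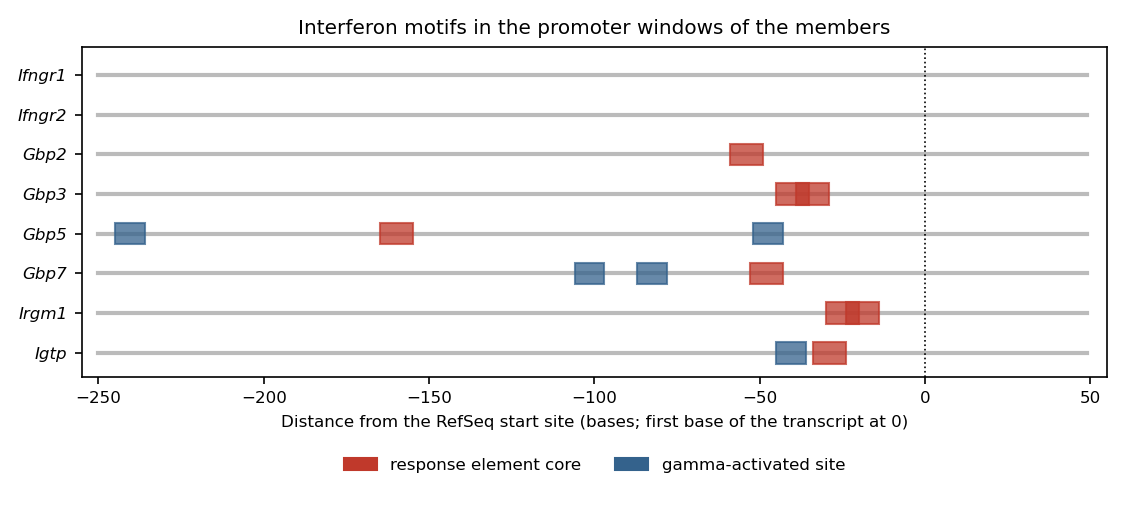
Motif positions in the RefSeq promoter windows of 8 members (for Gbp3, the 1 window shown above), in bases from the start site (dotted line). ISRE cores are in red and GAS motifs in blue. The lines of Ifngr1 and Ifngr2 are empty, each GTPase line carries at least 1 ISRE core, and Gbp5, Gbp7 and Igtp also carry GAS.

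Gbp2, Gbp3, Gbp5 and Gbp7 lie near each other on chromosome 3, between 142496934 and 142638008. Gbp9 lies on chromosome 5 (chr5:105076464-105110357, minus strand). Gbp5 (chr3:142496934-142522344, plus strand), known as a promoter of inflammasome assembly, had the largest difference among the member GTPases. It was at 79.1, 87.6 and 74.7 CPM in Veh and at 104, 99.1 and 88.8 CPM in GSK. Every GSK culture was above every Veh culture, although GSK replicate 3 exceeded Veh replicate 2 only slightly. The level rose by 20.9% (log2 fold change 0.27, SE 0.070, adjusted p = 0.01089).

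Gbp3 (chr3:142560016-142573213, plus strand) was at 101, 105 and 95.3 CPM in Veh and at 119.8, 118 and 110.1 CPM in GSK, again without overlap. It rose by 15.3% (log2 fold change 0.21, SE 0.052, adjusted p = 0.009501). Gbp7 (chr3:142530336-142550151, plus strand), which acts in delivering oxidase and autophagy components to vacuoles, was at 386, 398 and 347 CPM in Veh and at 424, 426 and 400.3 CPM in GSK. The lowest GSK culture lay just above the highest Veh culture. Gbp7 rose by 10.6% (log2 fold change 0.15, SE 0.051, adjusted p = 0.04511). Of the Gbp7 exon bases in the GENCODE annotation, 11.3% overlap the pseudogene Gm43802, and 8.77% of its 150-base stretches occur there too, so its count is uncertain to that extent.

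These 3 differences were small, and each passed by a margin that the loss of 1 culture could remove. Without Veh replicate 3, the log2 fold change was 0.17 for Gbp3 (adjusted p = 0.05346), 0.22 for Gbp5 (adjusted p = 0.05231) and 0.089 for Gbp7 (adjusted p = 0.1923). Without GSK replicate 1, it was 0.18 for Gbp3 (adjusted p = 0.0586), 0.22 for Gbp5 (adjusted p = 0.06322) and 0.13 for Gbp7 (adjusted p = 0.155). The differences of Gbp3 and Gbp5 thus kept most of their size while the adjusted p moved just over the threshold. Gbp7 was also lost without Veh replicate 1 (adjusted p = 0.06884) or GSK replicate 2 (adjusted p = 0.08906). The receptor chains stayed past the adjusted p whichever culture was left out, with log2 fold changes of -0.46 to -0.35 for Ifngr1 and -0.69 to -0.60 for Ifngr2 over the 13 alternative settings.

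The other 2 guanylate-binding proteins of the set did not pass. Gbp2 (chr3:142620663-142638008, plus strand), which targets the vacuoles of Toxoplasma, was at 456, 496 and 409 CPM in Veh and at 491, 454 and 429.8 CPM in GSK. The groups overlapped almost fully, with a log2 fold change of 0.014 (SE 0.073, adjusted p = 0.9051). Gbp9 was at 161, 160.3 and 112 CPM in Veh and at 166, 181 and 132 CPM in GSK. Its spread within groups (SD of 27.7 and 25.3 CPM) was wider than the difference between them (log2 fold change 0.15, SE 0.20, 95% interval -0.38 to 0.68, adjusted p = 0.6295). Its exons overlap those of Gbp4 and Gbp8 over 60 bases.

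Irgm1 and Igtp are regulators that hold the effector GTPases inactive on the membranes of the cell, and Iigp1 is such an effector. Irgm1 (chr11:48865245-48871420, minus strand) was at 247, 267 and 215 CPM in Veh and at 293, 287 and 258 CPM in GSK, so that 1 GSK culture fell within the Veh range. The log2 fold change was 0.20 (SE 0.079) and the adjusted p was 0.08095 with edgeR, although with DESeq2 it was 0.01995. Igtp (chr11:58199556-58207592, plus strand) was at 692, 739.9 and 631 CPM in Veh and at 743.5, 701 and 682 CPM in GSK (log2 fold change 0.044, SE 0.055, adjusted p = 0.5824). Its 95% interval of -0.077 to 0.16 lies inside 1.5-fold on both sides. Igtp shares 162 exon bases (8.01%) with its neighbour Irgm2.

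Iigp1, on chromosome 18, was at 332, 362 and 241 CPM in Veh and at 390.3, 339 and 269 CPM in GSK. It varied most within groups of all members (coefficient of variation 20.2% in Veh and 18.2% in GSK), and the log2 fold change of 0.096 (SE 0.22, adjusted p = 0.7839) was far inside that spread.

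Per kilobase of exon, the member transcripts ran in Veh from Igtp (340.1 ± 27 CPM per kb, SD, n = 3) through Ifngr1, Gbp2 (180.4 ± 17.3), Gbp7 (67.2 ± 4.79), Iigp1 (53.5 ± 10.8), Irgm1 (41.8 ± 4.52), Gbp3 (30.8 ± 1.48), Gbp9 (27.9 ± 5.36) and Gbp5 (12.1 ± 0.986) to Ifngr2. The ranges of the neighbours Gbp7 and Iigp1, Iigp1 and Irgm1, and Gbp3 and Gbp9 overlapped, and those of the other neighbours did not. The order of the means was the same in GSK, where the ranges of Ifngr1 (179 to 199 CPM per kb) and Gbp2 (171 to 195 CPM per kb) overlapped, as they did not in Veh (243 to 262 and 163 to 197 CPM per kb).

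**Figure D3:**
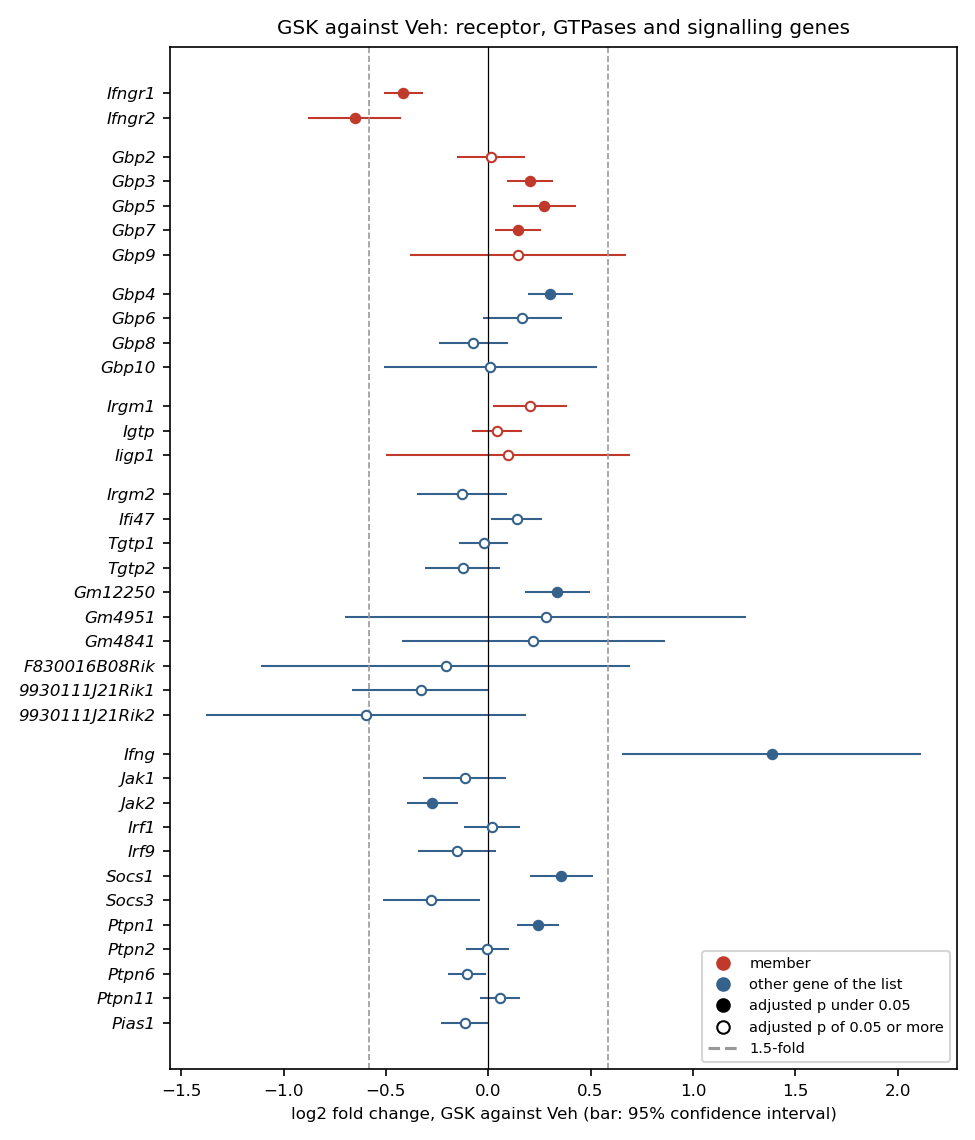
Log2 fold change of GSK against Veh (horizontal axis) with 95% confidence intervals for the members (red) and other tested genes of the GTPase and signalling lists (blue), with filled points for an adjusted p under 0.05 and dashed lines at 1.5-fold. Ifngr1, Ifngr2 and Jak2 lie left of 0 with filled points, Gbp3, Gbp5, Gbp7, Gbp4, Gm12250, Socs1, Ptpn1 and Ifng lie right of it, and the intervals of Gbp9 and Iigp1 are wide.

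The other GTPases of both families were counted in the same way. Of 4 other guanylate-binding proteins tested, none was called and 1 was higher by the adjusted p, beside 16.6% of all genes. This was Gbp4, which rose from 621 ± 46.7 to 766 ± 25.4 CPM (SD, n = 3 each, log2 fold change 0.30, adjusted p = 0.0009604). Of 10 other immunity-related GTPases tested, Gm12250 alone passed, beside the same share of all genes. It rose from 160.4 ± 15.3 to 203 ± 13.9 CPM (log2 fold change 0.34, adjusted p = 0.005047). The log2 fold change was above 0 in 3 of those 4 guanylate-binding proteins and in 4 of those 10 immunity-related GTPases. It was above 0 in 49.3% of all genes tested. The median log2 fold change was 0.15 over the 8 member GTPases, 0.089 over the other guanylate-binding proteins and -0.074 over the other immunity-related GTPases, beside -0.0039 over all genes tested.

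Upstream of these genes, Ifng, the ligand, was the 1 of 13 signalling genes to be called (2.22% of all genes were called higher). It was at 2.39, 6.33 and 5.52 CPM in Veh and at 12.8, 10.4 and 14.2 CPM in GSK, so every GSK culture was above every Veh culture. Ifng rose 2.61-fold (log2 fold change 1.39, SE 0.31, adjusted p = 0.01405), and the adjusted p was 0.05148 without GSK replicate 3. Jak2, the kinase of the IFNGR2 chain, fell from 144 ± 2.07 to 119.5 ± 9.96 CPM (log2 fold change -0.27, adjusted p = 0.003052). Jak1, the kinase of the IFNGR1 chain, averaged 799 ± 51 CPM under vehicle and 738 ± 81.9 under GSK (log2 fold change -0.12, adjusted p = 0.35), but passed without GSK replicate 2 (adjusted p = 0.005752).

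Inhibitors of the pathway did not move together. Socs1, which blocks the JAK kinases, and Ptpn1, a phosphatase that acts on JAK2, both rose. Socs1 went from 71.2 ± 7.57 to 91.2 ± 4.03 CPM (log2 fold change 0.36, adjusted p = 0.002354) and Ptpn1 from 144 ± 5.49 to 170.1 ± 7 CPM (log2 fold change 0.24, adjusted p = 0.002131). The other inhibitors of the list, named after their values were seen, did not pass, with log2 fold changes of -0.28 for Socs3 (adjusted p = 0.06937), -0.10 for Ptpn6 (adjusted p = 0.08559), -0.11 for Pias1 (adjusted p = 0.1334) and -0.0044 for Ptpn2 (adjusted p = 0.9515). Ptpn11, a further phosphatase of the list named in the same way, did not pass either (log2 fold change 0.059, adjusted p = 0.3467). The transcription factors Irf1 and Irf9 did not pass. Irf1 averaged 273 ± 24.3 CPM under vehicle and 276 ± 14 under GSK (log2 fold change 0.017, adjusted p = 0.8568), and Irf9 averaged 80.2 ± 6.17 and 72.2 ± 8.74 CPM (log2 fold change -0.15, adjusted p = 0.2072). Irf9 was lower past the adjusted p without GSK replicate 2 (adjusted p = 0.01147).

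Of 18 other genes known to respond to interferon gamma that could be tested, 9 were higher by the adjusted p, beside 16.6% of all genes. In all, 2 of the 18 were called higher, beside 2.22% of all genes, and both were among the 9. By edgeR or DESeq2, 0 of the 18 were lower by the adjusted p, beside 15.5% of all genes with edgeR. Without GSK replicate 2, 1 of the 18 was lower by the adjusted p. The 9 did not all do the same work. Psmb8 (log2 fold change 0.18), Psmb10 (0.22), Psme1 (0.17) and Psme2 (0.26) encode parts of the immunoproteasome and its activator, and Tapbp (0.15) encodes the tapasin of peptide loading. Of the same machinery, Psmb9 (log2 fold change -0.043), Tap1 (-0.11), Tap2 (-0.0084) and B2m (0.016) did not pass. They were named after their values were seen. Among the 9, Icam1 (0.28) encodes an adhesion molecule and Irf8 (0.19) a transcription factor. The 2 called genes were Cxcl10, a chemokine, from 2.45 ± 0.875 to 4.43 ± 1.12 CPM (log2 fold change 0.85, adjusted p = 0.03269), and Nos2, which makes nitric oxide, from 0.726 ± 0.464 to 1.79 ± 0.31 CPM (log2 fold change 1.29, adjusted p = 0.02389). The adjusted p of Cxcl10 rose to as much as 0.1389, and that of Nos2 to 0.09567, when single cultures were left out. The count of 9 was 5 without Veh replicate 1, 5 without Veh replicate 3 and 4 without GSK replicate 1.

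The member GTPases shared a second pattern, within the groups. In all 8 of them, replicate 3 was the lowest culture of Veh and also the lowest of GSK. Over all genes tested, this held for 13.9%, and the same was true of replicate 1 for 9.02% and of replicate 2 for 8.5%. It also held for all 22 GTPases of both families that could be tested, against 7 of 13 signalling genes and 10 of 18 other interferon gamma responsive genes. Ifngr2 was lowest in replicate 3 of both groups too. Ifngr1 was not, since Veh replicate 3 was its highest Veh culture.

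The size of the drop differed among the GTPases. Against the mean of replicates 1 and 2 of the same group, Iigp1 in replicate 3 dropped by 30.6% in Veh and by 26.1% in GSK, and Gbp9 dropped by 29.9% in Veh and dropped by 24.1% in GSK. Irgm1 dropped by 16.3% in Veh and by 10.9% in GSK. The other 5 member GTPases, among them Gbp3, which dropped by 7.54% in Veh and dropped by 7.32% in GSK, were lower in replicate 3 by less than Irgm1 in Veh. In a model with the group and the replicate number, edgeR's test of the replicate number called 25 genes, 0.214% of all genes tested. Gbp9 was the 1 member among them (adjusted p = 0.02783). Iigp1 was just short (adjusted p = 0.05281). Irgm1 did not pass (adjusted p = 0.8251), with an unadjusted p of 0.008111 in the same test. The labels name no batch, and no cause of this pattern was tested.

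**Figure D4:**
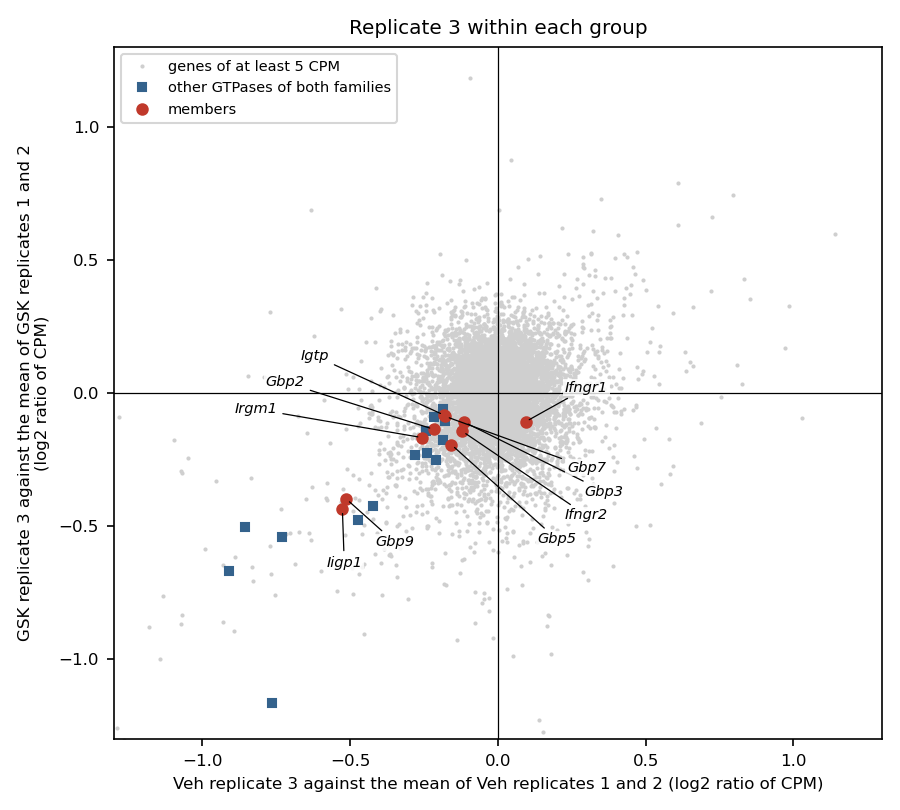
Level in replicate 3 against the mean of replicates 1 and 2 of the same group, as a log2 ratio of CPM, for Veh (horizontal axis) and GSK (vertical axis), with the 9604 tested genes of at least 5 CPM in grey, of which 12 lie outside the axes. The members other than Ifngr1 (red) and the other GTPases (blue) lie at the lower left, below 0 on both axes, with Gbp9 and Iigp1 furthest out among the members.

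Set beside same-numbered cultures, GSK was higher than Veh in 3 of 3 numbers for Gbp3, Gbp5, Gbp7, Gbp9 and Irgm1. The count was 2 of 3 for Gbp2, Igtp and Iigp1, and 0 of 3 for Ifngr1 and Ifngr2. The same count was not taken over all genes, and same-numbered cultures are not known to come from 1 mouse. These counts thus only describe the members. With replicate 3 of both groups left out, an alternative chosen after seeing the data, the receptor chains, Gbp3 (adjusted p = 0.02652) and Gbp5 (adjusted p = 0.01079) still passed, Irgm1 also passed (adjusted p = 0.04088) and Gbp7 did not (adjusted p = 0.1048). The set was chosen as interferon gamma receptor chains and induced GTPases, so its Gene Ontology terms in the deposited table describe that choice. The term for GTPase activity was attached to 8 members and to 1.7% of all 16281 genes, that for the cellular response to interferon-gamma to 6 members (0.516% of genes), and that for defense response to protozoan to 5 members (0.209%).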

How the data were processed

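Poly(A)+ RNA was sequenced from 6 cultures (3 Veh, 3 GSK). Per the labels, paired 150-base reads were trimmed with Trimmomatic, mapped to GRCm38 with HISAT2 2.1.0 and counted with HTSeq 0.11.2. The deposited values are raw read counts per gene. The annotation and strand setting of the counting are not given in the sources used here, so reads of overlapping or near-identical genes are uncertain. The deposited table also holds gene descriptions and Gene Ontology terms.

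Counts were scaled with TMM (factors 0.9906 to 1.006), filtered with filterByExpr and tested with the robust quasi-likelihood test of edgeR 4.0.16 (R 4.3.3), with Benjamini-Hochberg adjustment over all genes tested. Correlations used a prior count of 2. The pipeline was tested on simulated data. Alternatives were DESeq2 1.42.0, its size factors in edgeR, no filter, a filter of 1 CPM in 3 samples, a block for the replicate number, edgeR's test that the fold change exceeds 1.5, and leaving out each culture.

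The members and gene lists were chosen with earlier results of these data known. All members were named, and listed genes were named if they passed the adjusted p or were the ligand, a kinase or a transcription factor of the signalling list, of which 1 is not reported here. A few other listed genes were named after their values were seen, as stated where they appear. Listed genes without rows (Gbp11, Cxcl11, Mx1, Mx2, Trac, Xcr1 and Siglech) were not analysed here. Motifs were sought in RefSeq promoter windows, and lengths are merged exons of GENCODE M21. p-values measure the spread between these cultures only. The numbers of replicates were not taken as pairs, since the labels do not tie them to mice.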

Additional observations from a re-analysis of the deposited data

How the results depend on the processing

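The fall of Ifngr1 and Ifngr2 kept its direction under all 13 alternatives and its side of the adjusted p under all but the test of the fold change against 1.5, under which 0 members were called lower, 0 were lower by the adjusted p and 0 were higher. That test asks for a fold change above 1.5 itself, which Ifngr2 exceeds only slightly. The number of members higher by the adjusted p ran from 0 (without Veh replicate 3, or without GSK replicate 1) to 4 when single cultures were left out. The log2 fold changes of Gbp2, Gbp9, Igtp, Iigp1 and Irf1, which had not passed, turned in sign without single cultures. Ranges were -0.055 to 0.083 for Gbp2, -0.0048 to 0.27 for Gbp9, -0.014 to 0.099 for Igtp, -0.059 to 0.23 for Iigp1 and -0.053 to 0.068 for Irf1. Irgm1, which had not passed either, stayed above 0 (0.12 to 0.28). Without replicate 3 of both groups the log2 fold changes were -0.015 for Gbp2 and -0.017 for Irf1. The cause was not tested. The test of the replicate number called 2 members, Gbp9 and Iigp1, with DESeq2's likelihood ratio test and 2 without the filter on low counts, in place of 1. Over all genes, 260 were called higher and 479 lower, against 69 and 65 with the test of the fold change and 203 and 337 without replicate 3 of both groups. No setting moved the median log2 fold change of all genes by more than the difference between -0.0039 and -0.0157.

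With the replicate block in the model, 4 members were higher by the adjusted p (Irgm1 joined, adjusted p = 0.0134). In that model 2 members were lower by the adjusted p and 1 was called lower. Over all 11698 genes tested, 253 were called higher and 447 lower with the block. The share of all genes past the adjusted p alone was taken in the main fit only. The correlations of deviations from the group means between same-numbered cultures were -0.0515, -0.0814 and 0.164 over all genes. They cannot settle whether same-numbered cultures came from 1 mouse. The numbers were not treated as pairs, since the labels do not tie them to mice. The intervals given for Gbp9 and Iigp1 hold the spread between replicate numbers. With the replicate block, the adjusted p was 0.05485 in place of 0.6295 for Gbp9 and 0.2545 in place of 0.7839 for Iigp1.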

Other observations

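Genes that type I interferon induces were counted beside the members because many share the ISRE. Of 22 tested, 1 was higher by the adjusted p (beside 16.6% of all genes) and was called higher (beside 2.22%). This was Zbp1, a sensor of left-handed nucleic acids. Zbp1 went from 139 ± 25.6 CPM under vehicle to 217 ± 26.6 under GSK (SD, n = 3 each, log2 fold change 0.65, edgeR adjusted p = 0.04486). Its adjusted p was over 0.05 in 5 of the 6 fits that each left out 1 culture, but 1.864e-05 without replicate 3 of both groups and 8.921e-05 with the replicate block. The number of the 22 that were higher by the adjusted p was 10 without replicate 3 of both groups, 3 with DESeq2, 0 without the filter on low counts and 14 with the replicate block. Lower by the adjusted p were 0 of the 22 in the main fit, 1 with the replicate block and 1 without replicate 3 of both groups. Shares of all genes by the adjusted p alone were not taken under these other settings. The median log2 fold change of the 22 was 0.36, and 19 had a value above 0, beside 49.3% of all genes tested. Replicate 3 was the lowest culture of both groups for 21 of the 22, and 11 of them passed the test of the replicate number, beside 0.214% of all genes tested. Of the 18 of these genes with a promoter window, 11 held an ISRE core in at least 1 window and 3 held a GAS motif.

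Outside the lists, the genes whose log2 CPM over the 6 cultures ran most like that of the 8 member GTPases were Polr2i (mean Pearson r of 0.903 with the members), Vopp1 (0.902), Ubtd2 (0.897), Apcdd1 (0.894) and Parp12 (0.888). These values describe 6 libraries only and come from a ranking of all genes tested.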
